A study of Loxodonta africana with 12 samples.

Results

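The 7 genes described here are KIT, SULF1, FILIP1L, MCOLN3 and SSTR3, which were chosen for a large fall 5 h after irradiation, and SULF2 and PHEX, which were chosen for a rise 24 h after irradiation. They are 7 of the 16406 genes in the count tables, and their rows were found by gene symbol. The study compared RNA of African elephant (Loxodonta africana) blood that was untreated or irradiated (2 Gy in the column headers), 5 h or 24 h after treatment, and each of the 4 groups holds 3 libraries. The labels give neither the age, sex or number of the animals nor the blood fraction used, and no allele or other agent is named. They do not say that the 3 libraries of a group came from separate animals or cultures, so p-values measure only the spread between these libraries.

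KIT is the receptor tyrosine kinase for stem cell factor and is known from blood progenitors and mast cells. SULF1 and SULF2 are secreted endosulfatases that remove sulfate groups from heparan sulfate chains outside the cell, and those chains hold growth factors near their receptors. MCOLN3 is a cation channel of endosomes and lysosomes, SSTR3 is a somatostatin receptor coupled to inhibitory G proteins, FILIP1L is a filamin-interacting protein, and PHEX is a membrane endopeptidase best known from bone, where its loss causes phosphate wasting.

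The libraries held 18022475 to 38138163 counts in genes, and the 4 smallest were all collected at 24 h. Of 12 p53 target genes listed as a check of irradiation, 9 rose at 5 h and 9 at 24 h (adjusted p below 0.05, edgeR's quasi-likelihood test). Levels below are CPM, the counts relative to the library total, with 1 scaling over all 12 libraries, given in the order of replicates 1, 2 and 3, and group values are means ± SD (n = 3). Fold changes come from a fit of the 6 libraries of each time. Because the tissue was measured in bulk, fewer cells of a type and less RNA per cell cannot be told apart.

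The values at 5 h chose the 5 early fallers and the values at 24 h chose SULF2 and PHEX, so those values are descriptions without a test. The orders given here hold called genes with a symbol, a mean of at least 1 CPM and groups that did not overlap. In the order of falls at 5 h, SULF1 stood 2nd, MCOLN3 3rd, FILIP1L 4th, SSTR3 5th and KIT 8th of 46. Places 1, 6 and 7 were held by SLC16A10 (-2.06 on the log2 scale), HIST1H1D (-1.40) and FAM129C (-1.32), which are not among the 7 genes. KIT, the last of the 5 early fallers, had a log2 fold change of -1.30 ± 0.18 (SE), and SCML2, at place 9, had -1.16 ± 0.21. In the order of 225 rises at 24 h, SULF2 stood 5th at 3.05, between TNS1 at 3.82 and ZMAT3 at 2.99, and PHEX stood 38th at 1.66, between INADL at 1.67 and RPS27L at 1.66. Of all 12969 genes tested at 5 h, 0.478% were called lower and 1.12% higher, and of 14373 tested at 24 h, 4.94% were called lower and 1.8% higher. With the replicate number as a block at 5 h, 10.6% of all genes were called higher and 9.92% lower. Every list count with the block stands beside these shares. List counts at an unadjusted p below 0.05 or by DESeq2 are given without the share of all genes, as descriptions. All 7 genes passed the filter on low counts at both times.

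KIT was lower in irradiated than in untreated blood at both times. At 5 h its levels were 7.05, 5.80 and 6.08 CPM in untreated and 2.34, 2.13 and 3.23 CPM in irradiated libraries. At 24 h they were 6.39, 5.78 and 4.66 CPM in untreated and 1.87, 1.79 and 1.52 CPM in irradiated libraries. The treatment groups did not overlap at either time, and every irradiated library lay below every untreated one. The means were 6.31 ± 0.66 and 2.56 ± 0.58 CPM at 5 h, which is 2.46-fold lower after irradiation. The rule that chose KIT named its fall at 5 h and not its values at 24 h, although earlier results of these data were known. The means at 24 h were 5.61 ± 0.88 and 1.73 ± 0.18 CPM. KIT fell 3.25-fold at that time (log2 fold change -1.70 ± 0.20, 95% interval -2.17 to -1.23, adjusted p = 0.00499 by edgeR's quasi-likelihood test). The call at 24 h held when any 1 of the 6 libraries was left out. The fall at 5 h, by which KIT was chosen, kept its direction in all 6 such fits and lost its call in 3 of them (without untreated replicate 1 or irradiated replicates 1 or 2). These levels rest on 30 to 205 counts per library.

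**Figure D1:**
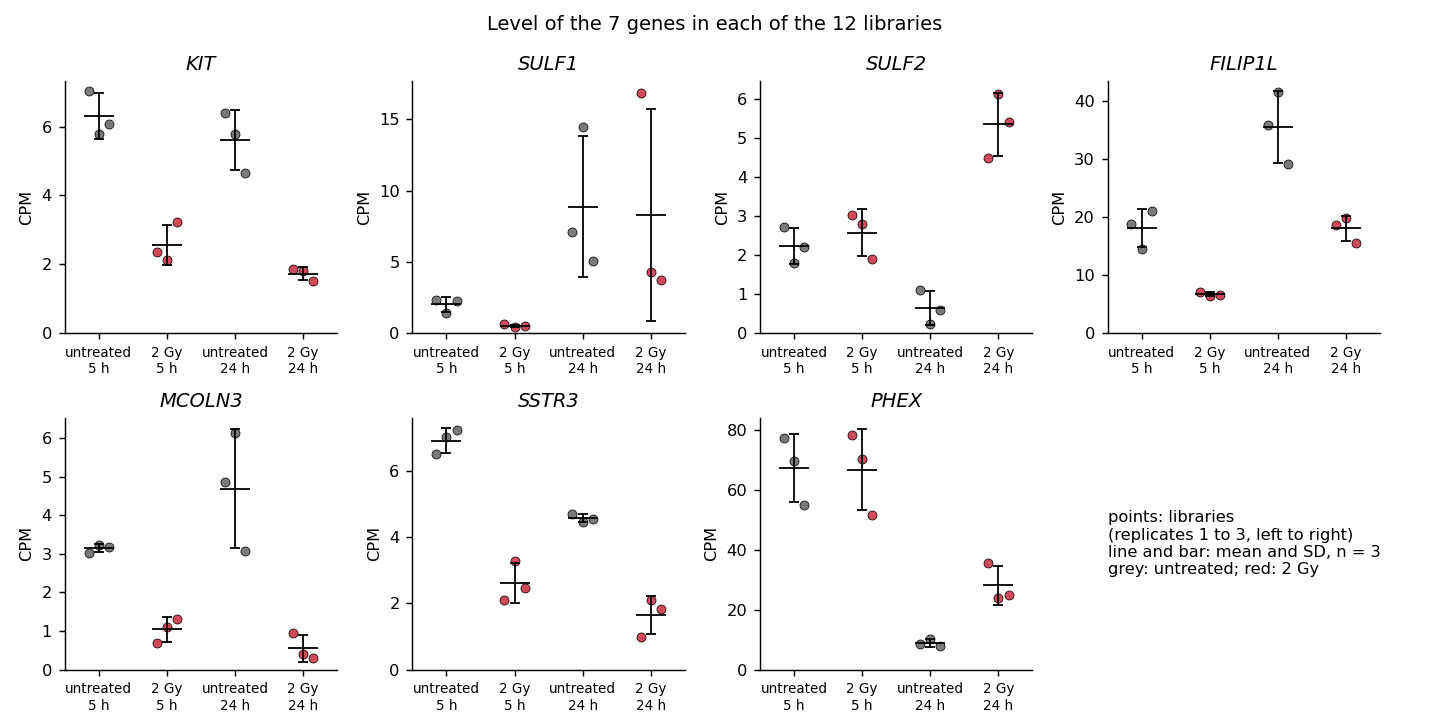
Level of each of the 7 genes in each library (points, CPM on a linear axis from 0) in the 4 groups, with lines at the group means and bars of 1 SD (n = 3). The irradiated points of KIT, FILIP1L, MCOLN3 and SSTR3 lie below the untreated points at both times, those of SULF1 do so at 5 h and overlap at 24 h, and those of SULF2 and PHEX overlap at 5 h and lie higher at 24 h.

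KIT was read beside its pathway and beside the cells it is known from. Of 31 KIT signalling genes tested, 0 were called at 5 h (2 higher and 2 lower at an unadjusted p below 0.05, and 1 higher by DESeq2), with a median log2 fold change of 0.04 against -0.001 over all genes. With the replicate number as a block at 5 h, 7 were called higher and 3 lower, beside 10.6% and 9.92% of all genes. At 24 h, 1 of 31 was called (list median 0.01, and 0.01 over all genes), the SRC-family kinase FYN, which rose slightly (0.43 ± 0.08, adjusted p = 0.028 by edgeR) and kept the call in 1 of 6 fits that each left out a library. The KIT ligand gene KITLG was not analysed here. Among 8 class III receptor kinases and ligands related to KIT, 1 was called higher at 5 h and 2 at 24 h, with list medians of 0.01 and 0.16, and none lower. With the replicate block at 5 h, 2 were called higher and 2 lower. FLT3 had -0.32 ± 0.08 at 5 h (adjusted p = 0.13, and 0.00036 with the replicate block, both by edgeR) and -0.07 ± 0.15 at 24 h. The platelet-derived growth factor gene PDGFB rose at both times (1.04 ± 0.19, adjusted p = 0.039, and 1.63 ± 0.30, adjusted p = 0.022, edgeR), with the call kept in 1 and 3 of 6 fits that each left out a library. CSF1, the macrophage growth factor gene, was the other call at 24 h (0.69 ± 0.12, adjusted p = 0.021 by edgeR), kept in 1 of 6.

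Markers of mast cells and basophils had 0 calls of 10 at 24 h (median 0.17, 1 higher at an unadjusted p below 0.05 and 1 higher by DESeq2). Their summed level was 242 to 270 CPM in untreated and 265 to 319 CPM in irradiated libraries at that time. MITF was the largest part of that sum (means of 190 and 217 CPM, scaled within the 6 libraries of that time). At 5 h, 1 of 9 was called, the mast cell protease gene CMA1, which rose (1.31 ± 0.11, adjusted p = 0.0011 by edgeR) and was kept in all 6 fits with a library left out. It was the 1 gene of the 9 with a positive value, and the other 8 had values below 0 (list median -0.13), none of them called. The fit with the replicate block called 1 higher and 1 lower. The mast cell protease CPA3 was close to 0, with 0 to 3 counts at 5 h and 5 to 10 at 24 h, and 8 of the 19 listed genes were not analysed here. The progenitor marker CD34 had 3 to 10 counts at 5 h and 5 to 19 at 24 h. Of 14 progenitor markers tested at 24 h, 2 were called lower, THY1 and CRHBP, and none higher. THY1 fell (-0.78 ± 0.14, adjusted p = 0.022 by edgeR), a call kept in 3 of 6 fits with a library left out. CRHBP, named after its values were seen, had 25 to 34 counts in untreated and 1 to 6 counts in irradiated libraries at 24 h. It was also the 1 call among 11 progenitor markers at 5 h, with 11 to 17 and 2 to 4 counts, and with the replicate block 2 were called lower. The CRHBP call was kept in 0 of 6 fits with a library left out at 5 h and in 1 of 6 at 24 h. The part of these markers in the fall of KIT was not tested.

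SULF1 was lower in irradiated blood at 5 h, and at 24 h no difference was detectable. Its levels at 5 h were 2.35, 1.41 and 2.28 CPM in untreated and 0.601, 0.448 and 0.491 CPM in irradiated libraries, and the groups did not overlap. The means of 2.01 ± 0.52 and 0.513 ± 0.079 CPM correspond to a 3.89-fold lower level, on 12 to 19 counts per irradiated library. At 24 h its levels were 7.07, 14.5 and 5.07 CPM in untreated and 16.9, 4.25 and 3.76 CPM in irradiated libraries. Untreated replicate 2 and irradiated replicate 1 stood high, the other 4 libraries lay between 3.76 and 7.07 CPM, and the groups overlapped. Those 2 high libraries also deviated together from their group means over 12341 genes (r = 0.694). The fit did not pair them, so its interval includes any deviation they share, and whether they share a source was not tested. The difference at 24 h was -0.08 ± 0.63 on the log2 scale (edgeR adjusted p = 0.95), and its 95% interval of -1.57 to 1.40 allows a level between 0.337 and 2.64 times the untreated one. Without irradiated replicate 1 the value was -1.16 (adjusted p = 0.17), and without untreated replicate 2 it was 0.47 (adjusted p = 0.82, edgeR).

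SULF2 was higher in irradiated blood at 24 h. Its levels at 5 h were 2.72, 1.79 and 2.21 CPM in untreated and 3.04, 2.80 and 1.90 CPM in irradiated libraries, with overlapping groups. The difference at 5 h was 0.19 ± 0.23 (edgeR adjusted p = 0.79), with a 95% interval of 0.787 to 1.66 times the untreated level. At 24 h the levels were 1.12, 0.231 and 0.591 CPM in untreated and 4.50, 6.13 and 5.43 CPM in irradiated libraries. Every irradiated library lay above every untreated one, and the means of 0.646 ± 0.445 and 5.36 ± 0.82 CPM gave an 8.29-fold higher level. The untreated libraries at 24 h held 8 to 33 counts of SULF2, so the size of that ratio rests on few counts. It was 12.7-fold without untreated replicate 1, and without irradiated replicate 2 the difference was not called (log2 fold change 2.92).

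The balance of both endosulfatases was compared per kilobase of exon. At 5 h the SULF2 level was 1.16, 1.27 and 0.976 times the SULF1 level in untreated and 5.08, 6.28 and 3.89 times it in irradiated libraries. At 24 h the untreated libraries had ratios of 0.159, 0.016 and 0.117, and the irradiated ones had 0.268, 1.45 and 1.45. At each time every irradiated library had a higher ratio than every untreated one, and no test was made because the genes were chosen on these values.

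**Figure D2:**
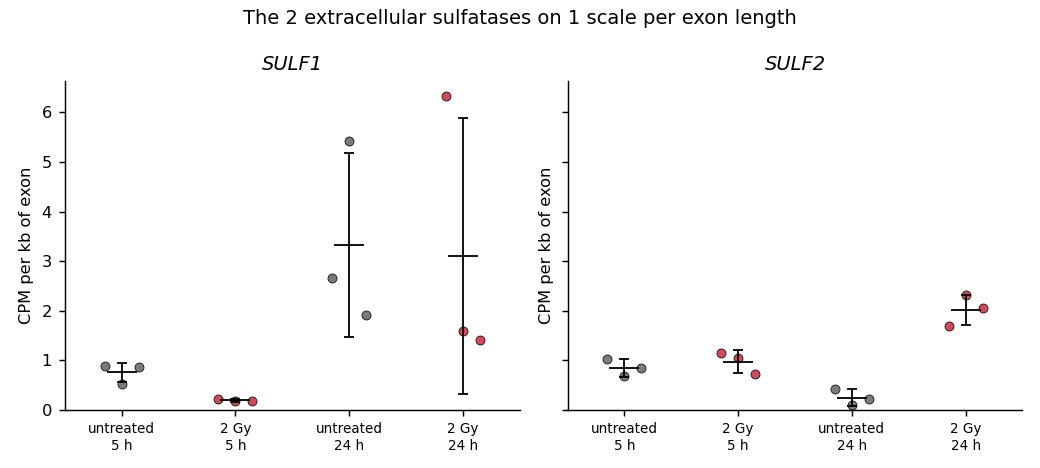
Levels of SULF1 and SULF2 in each library, in CPM per kilobase of exon. SULF1 exceeds SULF2 in all 3 untreated libraries at 24 h, and irradiated replicate 1 is the irradiated library at that time in which SULF1 is also the higher.

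Genes that build or carry heparan sulfate, the substrate of both enzymes, had few calls. Of 22 synthesis and editing genes tested at 5 h, 1 was called, XYLT2, which starts the sugar chain on its core protein and rose (1.01 ± 0.10, adjusted p = 0.0024 by edgeR). The value of XYLT2 at 24 h was negative, -0.83 ± 0.22, and was not called (adjusted p = 0.069 by edgeR). The list medians were -0.07 at 5 h and -0.06 at 24 h. With the replicate block at 5 h, 4 were called higher and 1 lower. At 24 h, 1 of 21 was called higher (PAPSS2, a sulfate donor synthase, 0.43 ± 0.10) and 1 lower (HS3ST3A1, a sulfotransferase gene with 3 to 33 counts, named after its values were seen), and neither call was kept in any of 6 fits that each left out a library. The proteoglycan core genes had 0 calls of 10 at 5 h (median -0.003, 0 at an unadjusted p below 0.05, 0 by DESeq2) and 0 of 11 at 24 h (median 0.39, 2 higher and 2 lower at an unadjusted p below 0.05, 0 by DESeq2). The other sulfatases and their activators had 0 calls of 13 at 5 h and 0 of 14 at 24 h (medians -0.04 and 0.10, 0 at an unadjusted p below 0.05 and 0 by DESeq2 at both times). With the replicate block at 5 h, 1 was called higher.

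Heparan-binding growth factors and their receptors, in a list that also holds SPRY1, had 1 call of 19 at 5 h. It was FGF2, which had 0 to 7 counts in untreated and 40 to 68 counts in irradiated libraries, and is named because it was the single call, chosen after its values were seen. Its call was kept in 4 of 6 fits that each left out a library. With the replicate block, 5 were called higher and 1 lower. The list medians were 0.01 at 5 h and 0.30 at 24 h. At 24 h, 2 of 20 were called lower, VEGFC (-1.05 ± 0.18, adjusted p = 0.018 by edgeR) and CXCL12 (-1.55 ± 0.34, adjusted p = 0.039), and none higher. At an unadjusted p below 0.05, 4 were higher and 4 lower, and by DESeq2 2 were higher and 2 lower. FGF2 had 0 to 9 counts in untreated and 24 to 48 in irradiated libraries at 24 h (3.21 ± 0.81). It was not called there (adjusted p = 0.063 by edgeR). VEGFC lost its call in 3 of 6 fits with a library left out (untreated replicates 1 and 2 and irradiated replicate 2), and CXCL12 in all 6.

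MCOLN3 was lower in irradiated blood at both times. Its levels at 5 h were 3.02, 3.23 and 3.19 CPM in untreated and 0.696, 1.12 and 1.32 CPM in irradiated libraries, a 3.03-fold lower level. At 24 h they were 4.87, 6.12 and 3.07 CPM in untreated and 0.954, 0.403 and 0.305 CPM in irradiated libraries. The groups did not overlap at either time, and the lowest value belonged to an irradiated library with 6 counts. The tested fall at 24 h was 8.19-fold (log2 fold change -3.03 ± 0.46, edgeR adjusted p = 0.012), and this call depended on irradiated replicate 2 (adjusted p = 0.061 when that library was left out). Without irradiated replicate 1, the highest of the 3, the fall was 13.1-fold.

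The paralog MCOLN2, the next gene row beside MCOLN3 on the same scaffold, also fell at 24 h (-1.15 ± 0.15, adjusted p = 0.0072 by edgeR), from a mean of 35.9 to 16.2 CPM scaled within the 6 libraries of that time. At 5 h MCOLN2 had -0.78 ± 0.15 (adjusted p = 0.053, and 4e-06 with the replicate block, both by edgeR). MCOLN1, the widely expressed lysosomal family member, had 0.003 ± 0.10 at 5 h and 0.31 ± 0.11 at 24 h and was called at neither time. Among 15 lysosomal channels and phosphoinositide enzymes (medians 0.03 at 5 h and 0.002 at 24 h), MCOLN2 was the 1 call at 24 h. At 5 h, 0 were called (1 lower at an unadjusted p below 0.05 and 1 lower by DESeq2), and with the replicate block 4 were called higher and 3 lower.

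SSTR3 was lower in irradiated blood at both times. The levels at 5 h were 6.49, 7.02 and 7.21 CPM in untreated and 2.09, 3.28 and 2.46 CPM in irradiated libraries, 2.68-fold lower. At 24 h they were 4.70, 4.45 and 4.55 CPM in untreated and 0.992, 2.10 and 1.83 CPM in irradiated libraries. No irradiated library reached an untreated one at either time. The tested fall at 24 h was 2.82-fold (log2 fold change -1.49 ± 0.28, edgeR adjusted p = 0.024). That call was lost in 4 of 6 fits with a library left out, those without each of the untreated replicates and the one without irradiated replicate 3 (adjusted p between 0.061 and 0.070).

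Of the Gi signalling genes tested beside SSTR3, 0 of 13 were called at 5 h (median -0.03, 1 lower at an unadjusted p below 0.05 and 1 lower by DESeq2). The fit with the replicate block called 1 higher and 2 lower, among them GRK6 (adjusted p = 5.1e-05 by edgeR, log2 fold change -0.37 ± 0.09 without the block). At 24 h (median 0.05), 1 of 15 was called, the receptor kinase GRK6, which fell (-0.81 ± 0.12, adjusted p = 0.012 by edgeR) and was not called with irradiated replicate 2 left out (adjusted p = 0.063). The genes for somatostatin, cortistatin and the other 4 somatostatin receptors were not analysed here.

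FILIP1L was lower in irradiated blood at both times. The 5 h levels were 18.8, 14.5 and 21.0 CPM in untreated and 7.15, 6.38 and 6.63 CPM in irradiated libraries, 2.71-fold lower. At 24 h they were 35.8, 41.5 and 29.1 CPM in untreated and 18.7, 19.8 and 15.5 CPM in irradiated libraries. The groups stayed apart at both times although both were higher at 24 h, so that irradiated blood at 24 h was close to untreated blood at 5 h (18.01 ± 2.23 and 18.12 ± 3.32 CPM). The tested fall at 24 h was 1.98-fold (log2 fold change -0.98 ± 0.16, edgeR adjusted p = 0.015), but leaving out untreated replicate 1 gave an adjusted p of 0.058 and leaving out irradiated replicate 2 gave 0.0502 (edgeR), so 2 of 6 such fits ended the call. The filamin genes and FILIP1 had 0 calls of 3 at 5 h (median -0.06, 1 lower at an unadjusted p below 0.05, 0 by DESeq2) and 0 of 4 at 24 h (median 0.17, 0 at an unadjusted p below 0.05, 0 by DESeq2). With the replicate block at 5 h, 1 was called lower.

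Of the 5 early fallers, 4 were therefore called lower at 24 h, beside 4.94% of all genes, and SULF1 was the exception. The number was 2 without untreated replicate 1 (KIT and MCOLN3) or without irradiated replicate 2 (KIT and SSTR3). The genes were chosen with earlier results of these data known, which limits the comparison with all genes. Of the 2 late risers, 0 were called at 5 h (0 at an unadjusted p below 0.05 and 0 by DESeq2), beside 1.6% of all genes called in either direction. A choice for a late rise may itself favour genes without an early one, so this count of late risers is a description. Both comparisons of a gene use different libraries at 5 h and 24 h, and whether the effect differed between times was not tested.

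**Figure D3:**
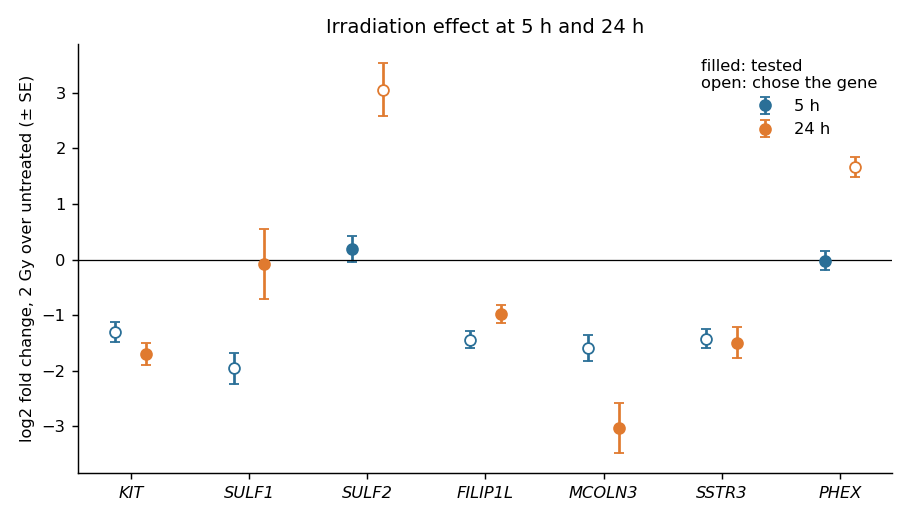
Log2 fold change of irradiated over untreated libraries with its SE (bars) for each of the 7 genes at 5 h (blue) and at 24 h (orange), filled where tested and open where the value chose the gene. SULF1 at 24 h and SULF2 and PHEX at 5 h lie near 0, within 1 SE of it. The filled points of SULF2 and PHEX at 5 h may have been favoured by the choice of late risers.

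PHEX did not separate the groups at 5 h and was higher in irradiated blood at 24 h. At 5 h its levels were 77.3, 69.5 and 54.9 CPM in untreated and 78.2, 70.2 and 51.7 CPM in irradiated libraries. Libraries with the same number were close to each other at that time. The difference was -0.02 ± 0.17 (edgeR adjusted p = 0.98), with a 95% interval of 0.749 to 1.29 times the untreated level. At 24 h the levels were 8.49, 10.2 and 7.76 CPM in untreated and 35.4, 23.9 and 24.9 CPM in irradiated libraries, 3.17-fold higher. No untreated library reached an irradiated one at 24 h, yet all 6 libraries lay below every library at 5 h.

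Related phosphate and peptidase genes showed few calls. The phosphate and mineral list had medians of 0.02 at 5 h and 0.21 at 24 h. Of 13 phosphate and mineral regulators tested at 24 h, 2 were called lower, ENPP1, which makes pyrophosphate (-0.81 ± 0.13, adjusted p = 0.017 by edgeR), and GALNT3, which glycosylates the phosphate hormone FGF23 (-0.55 ± 0.12, adjusted p = 0.040), and none higher. ENPP1 kept its call in 3 of 6 fits with a library left out (lost for untreated replicates 1 and 3 and irradiated replicate 2), and GALNT3 in 0 of 6. At 5 h, 0 of 11 were called (1 lower at an unadjusted p below 0.05, 0 by DESeq2), and with the replicate block 2 were called higher and 4 lower. The zinc endopeptidases related to PHEX had 0 calls of 4 at 5 h and 0 of 5 at 24 h (medians -0.09 and 0.21, 0 at an unadjusted p below 0.05 and 0 by DESeq2 at both times).

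**Figure D4:**
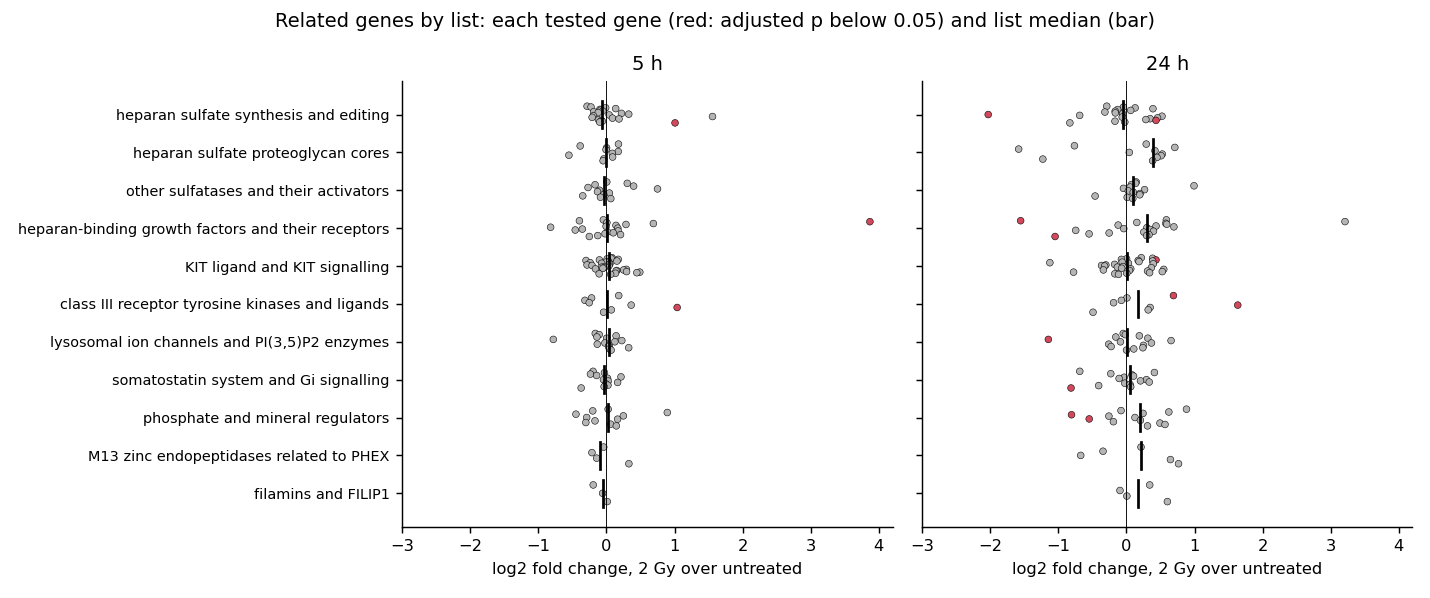
Log2 fold change at 5 h and at 24 h of each tested gene in the lists related to the 7 genes, with called genes in red and list medians as bars. The medians of these 11 lists lie between -0.09 and 0.04 at 5 h and between -0.06 and 0.39 at 24 h.

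Markers of blood cell types moved beside these genes. At 24 h, 12 of 14 B cell markers were called lower, with a median log2 fold change of -2.84 and a summed level of 841 to 1367 CPM in untreated against 275 to 702 CPM in irradiated libraries. The largest part of that sum was FCER2, which was not called (559 ± 368 and 307 ± 260 CPM, scaled within the 6 libraries of that time). MS4A1, a called marker, fell from a mean of 95.9 to 5.84 CPM on that scale, and CD72 was not called (96.4 and 111 CPM). NK and cytotoxic markers had 6 of 12 called lower (summed 436 to 496 against 173 to 249 CPM). T cell markers had 5 of 18 called lower (1214 to 1580 against 951 to 1121 CPM). Dendritic cell markers had 3 of 8 called lower, with sums that overlapped (214 to 258 against 154 to 225 CPM). The dendritic cell list had a median of -0.08 at 24 h, with 4 positive and 4 negative values. At 5 h, 1 of 15 B cell markers was called lower, and 12 with the replicate block, with a summed level of 574 to 773 and 384 to 625 CPM. Dendritic cell markers had 2 of 8 called lower at 5 h (median -0.60), and 5 with the block, and their summed levels of 124 to 133 and 86.6 to 107 CPM did not overlap. T cell and NK and cytotoxic markers had 0 calls of 18 and 0 of 12 at 5 h (2 and 3 lower, and 0 and 1 higher, at an unadjusted p below 0.05, with 1 lower each by DESeq2), and with the block 10 and 7 lower and 0 and 1 higher. Their part in the falls of KIT, MCOLN3, SSTR3 and FILIP1L was not tested. In the direction of SULF2 and PHEX at 24 h, the summed neutrophil markers were 274 to 385 CPM in untreated and 566 to 649 CPM in irradiated libraries, with 1 of 13 called higher. The summed platelet markers were 54.1 to 68.9 and 112 to 142 CPM, with 3 of 9 called higher, and the summed monocyte and macrophage markers 2430 to 3211 and 5308 to 6388 CPM, with 3 of 11 called higher and 1 lower. ITGAM was the largest part of the monocyte and macrophage sum (means of 1437 and 3612 CPM, scaled within that time). In that list 7 genes had positive and 4 negative values. At 5 h the monocyte and macrophage sums were 2471 to 2605 against 3284 to 3845 CPM, with 2 of 11 called higher. With the replicate block 6 were called higher and 2 lower. Neutrophil and platelet sums overlapped at 5 h (1556 to 2038 against 1467 to 1918 CPM, and 67.6 to 144 against 87.9 to 166 CPM). In those lists 1 of 12 and 1 of 9 were called higher, and with the block 3 and 1 higher and 3 and 0 lower. The part of neutrophil, platelet and monocyte markers in the rises of SULF2 and PHEX was not tested. Beside SULF1, the stromal and endothelial list had 1 call higher and 1 lower of 9 at 24 h, and its summed level was almost all PECAM1 (means of 970 and 967 CPM), a gene also of leukocytes and platelets. The collagen genes COL1A1, COL1A2 and COL3A1 had means of 0.901, 0.912 and 0.833 CPM in untreated and 1.79, 1.60 and 1.43 CPM in irradiated libraries, scaled within the 6 libraries of that time, and the part of stromal cells in the SULF1 level was not tested.

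Levels also changed between 5 h and 24 h. These ratios share libraries with the choice of the genes and are given without a test, beside a median of all genes of 0.22 in untreated and 0.13 in irradiated blood on the log2 scale. SULF1 was 4.41-fold higher at 24 h than at 5 h in untreated and 16.2-fold higher in irradiated blood, where it was 7.80-fold without irradiated 24 h replicate 1. SULF2 was 3.47-fold lower at 24 h in untreated (5.45-fold without untreated 24 h replicate 1) and 2.08-fold higher in irradiated blood. PHEX was 7.63-fold lower in untreated and 2.38-fold lower in irradiated blood, so that at 24 h it lay below its 5 h level in both. MCOLN3 had 0.58 in untreated and -0.92 in irradiated blood on the log2 scale (-1.56 without irradiated 24 h replicate 1), and KIT had -0.17 and -0.57. FILIP1L was 1.96-fold and 2.68-fold higher at 24 h, and SSTR3 had -0.60 and -0.67 on the log2 scale.

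**Figure D5:**
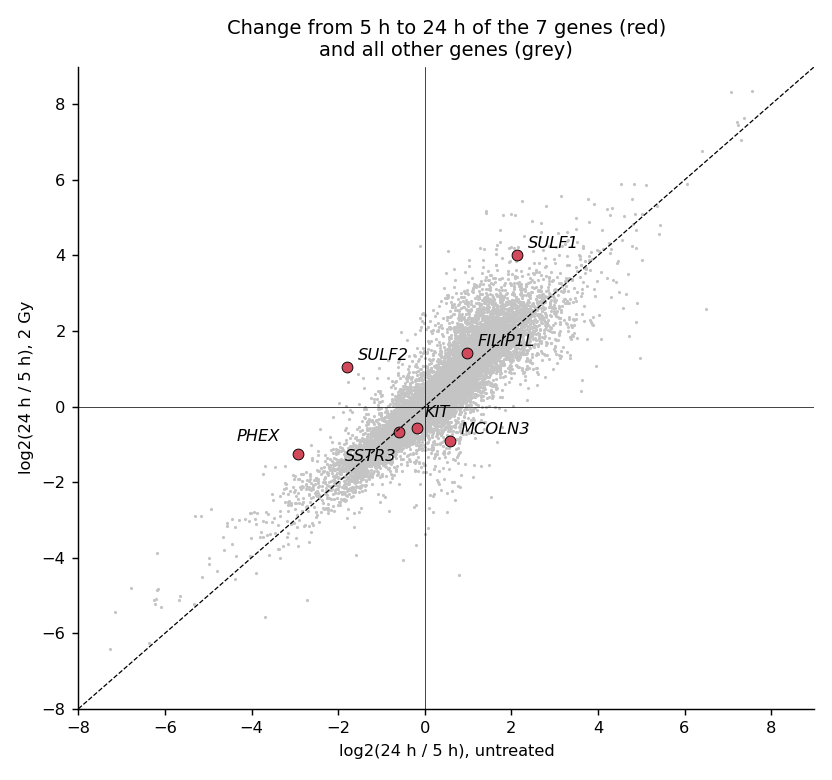
Log2 ratio of the level at 24 h over 5 h in untreated (horizontal) and irradiated blood (vertical) for the 7 genes (red) and all other genes with a mean above 0 in each group (grey), with a dashed line where both ratios are equal. SULF2 lies at -1.79 and 1.05, PHEX at -2.93 and -1.25, and MCOLN3 lies below the line.

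Per kilobase of exon, the order of levels in untreated blood at 5 h was PHEX (29.1 ± 4.9 CPM per kilobase), SSTR3 (5.52 ± 0.30), FILIP1L (5.32 ± 0.97), KIT (2.03 ± 0.21), MCOLN3 (1.89 ± 0.07), SULF2 (0.844 ± 0.177) and SULF1 (0.754 ± 0.196). SSTR3 and FILIP1L, KIT and MCOLN3, and SULF2 and SULF1 did not differ beyond their SDs. In untreated blood at 24 h the order was FILIP1L (10.4 ± 1.8), PHEX (3.82 ± 0.54), SSTR3 (3.65 ± 0.10), SULF1 (3.33 ± 1.86), MCOLN3 (2.82 ± 0.92), KIT (1.81 ± 0.28) and SULF2 (0.243 ± 0.168). Among PHEX, SSTR3, SULF1 and MCOLN3, neighbours in that order differed by less than the larger of their SDs. In irradiated blood at 24 h PHEX was again the highest (12.1 ± 2.8), followed by FILIP1L (5.29 ± 0.65), and MCOLN3 was the lowest (0.333 ± 0.210). Of the 7 exon lengths, 5 are multiples of 3, so some gene models may hold coding sequence alone, which affects levels per kilobase.

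Across the 12 libraries the genes nearest to each member by Pearson correlation of log2 CPM are a description, since all points share the treatment and time. KIT was nearest to MCOLN3 (r = 0.938), the lymphocyte TNF receptor family gene CD27 (0.935) and the sterol synthesis gene CYP51A1 (0.934). MCOLN3 was nearest to the Toll-like receptor gene TLR10 (0.953), GPR82 (0.939) and KIT. SSTR3 was nearest to TAGLN2 (0.943), DBN1 (0.934) and BRI3BP (0.930), and FILIP1L to TLR3 (0.970), COL17A1 (0.967) and SCML2 (0.961). SULF1 was nearest to ANXA3 (0.979), CPT2 (0.974) and SNAP23 (0.973). SULF2 was nearest to the platelet collagen receptor gene GP6 (0.901), LMOD1 (0.892) and RCBTB2 (0.862). PHEX was nearest to the phagocyte metal transporter gene SLC11A1 (0.988), CCL14 (0.980) and PEA15 (0.978). Among the 7 genes, KIT and SSTR3 had r = 0.885, SULF1 and FILIP1L 0.874, and SULF1 and SULF2 -0.283.

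The 7 genes lie on 7 different scaffolds of the assembly that the headers name L_africana_Jul_2009, with positions as deposited. KIT (ENSLAFG00000022078) lies on scaffold 38 from 6242370 to 6343028 on the plus strand, between the rows of PDGFRA and KDR. SULF1 (ENSLAFG00000008825) lies on scaffold 8 from 16274140 to 16344907 (plus), and SULF2 (ENSLAFG00000000648) on scaffold 19 from 46932314 to 47032859 (minus). MCOLN3 (ENSLAFG00000016018) lies on scaffold 17 from 5482175 to 5510515 (plus), and SSTR3 (ENSLAFG00000013010) on scaffold 73 from 8419718 to 8420987 (plus). FILIP1L (ENSLAFG00000021917) lies on scaffold 66 from 1920622 to 2010860 (minus), and PHEX (ENSLAFG00000010566) on scaffold 39 from 9285780 to 9522108 (minus). No member overlaps another gene row. PDGFRA and KDR, the neighbours of KIT and related receptor kinases, were called at neither time (0.07 ± 0.20 and 0.13 ± 0.41 at 5 h, 0.32 ± 0.47 and 0.59 ± 0.61 at 24 h, log2 fold change ± SE).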

How the data were processed

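Blood RNA was sequenced from ribosomal RNA-depleted stranded libraries, per the labels' protocols. The deposited tables hold raw counts per gene, 1 table for each time, and per the file headers the gene models lie on L_africana_Jul_2009. Which aligner, counting program and strand setting were used is not stated in the labels or headers. The headers do not say whether positions count from 0 or 1. The authors' table also holds, per the file headers, a log2 ratio of untreated over irradiated for 1 exon region per gene and a score derived from its adjusted p, whose scale is not stated.

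Counts were tested within each time with edgeR 4.0.16 (R 4.3.3, limma 3.58.1): TMM scaling, filterByExpr, quasi-likelihood F test, Benjamini-Hochberg adjustment over all genes tested and a threshold of 0.05. DESeq2 1.42.0 was an alternative. The steps were tested on simulated data. Printed CPM use 1 TMM scaling over all 12 libraries unless stated. A total of 0 columns of per-sample values had no sample. Library totals were 18022475 to 38138163 counts, at which a member with few counts has a wide error.

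At 5 h, libraries with the same replicate number in the labels deviated together from their group means (r = 0.592, 0.589 and 0.745 over 11191 genes), so the numbers were taken as pairs there and values from a fit with the number as a block are given beside the 5 h results whose call or count they change.

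The members and the gene lists were chosen with earlier results of these data known. Named list genes were up to 3 per list and time with the smallest p among those called with a mean of at least 1 CPM; genes of similar pattern were the 3 with the highest correlation. Alternatives were RLE scaling, DESeq2, other filters, all 12 libraries in 1 fit, the replicate block and leaving out each library.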

Additional observations from a re-analysis of the deposited data

How the results depend on the processing

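At 5 h, 207 genes were called, against 417 with DESeq2, 2655 with the replicate block and 86 to 191 when 1 library was left out (191 without irradiated replicate 3, at most 129 without any other). At 24 h, 968 were called, against 1545 with DESeq2, 1670 with all 12 libraries in 1 fit and 293 to 1061 when 1 library was left out (1061 without irradiated replicate 1, at most 548 without any other). The number of early fallers called lower at 24 h ranged from 2 to 4 when 1 library was left out, with 2 called without untreated replicate 1 or without irradiated replicate 2, and the cause was not tested. It was 4 under the scaling, filter, tool, 12-library and replicate block alternatives. Of the genes chosen at 5 h, KIT lost its call there in 3, SULF1 in 4, MCOLN3 in 4, and FILIP1L and SSTR3 in 0 of the 6 fits with a library left out, with the same direction. With all 12 libraries in 1 fit, SULF1 (adjusted p = 0.33) and MCOLN3 (0.054, both by edgeR) also lost their calls at 5 h. The number of late risers called at 5 h was 0 under every alternative run.

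At 24 h same-numbered libraries did not all deviate together (r = -0.008, -0.490 and 0.728 over 12341 genes), so the number was not taken as a pair. Untreated replicate 1 correlated best with irradiated replicate 2 (0.448), untreated replicate 2 with irradiated replicate 1 (0.694) and untreated replicate 3 with irradiated replicate 3 (0.728). The replicate block gave 707 calls at 24 h. It changed no call of an early faller there. Because the number did not pair all libraries at 24 h, that fit cannot show whether these calls hold under pairing. Over the members and named list genes, 744 alternative fold changes were computed. Of the 708 for called values, 121 lost the call and 0 changed direction. Of the 36 for values not called, 0 became calls and 6 changed sign: SULF1 at 24 h in 3 (0.22 to 0.47) and PHEX at 5 h in 3 (0.01 to 0.12). Leaving out each library for the ratios over time was chosen after seeing the data. Members with fewer than about 20 counts in some libraries (SULF1 at 5 h, SULF2 in untreated and MCOLN3 in irradiated blood at 24 h) are limited by depth.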

Other observations

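In the authors' deposited table of exon use, PHEX is the 1 member listed, at 24 h. The listed region lies on scaffold 39 from 9514089 to 9514158, within the PHEX row, and the authors' log2 ratio of untreated over irradiated is 1.215, a higher relative use in untreated blood. By the authors' score it ranks 89 of the 190 genes with a score above 0 at 24 h. At 5 h the authors' deposited table lists none of the 7 genes.

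The rows beside the other members were read for their own changes. RAC2 beside SSTR3 had -0.08 ± 0.06 at 5 h and 0.13 ± 0.10 at 24 h (log2 fold change ± SE). NCOA3 and PREX1 beside SULF2 had -0.08 ± 0.11 and -0.19 ± 0.09 at 24 h, and SMS beside PHEX had 0.07 ± 0.13. None of these 4 genes was called at either time. MCOLN2 was the 1 called neighbour among those with a symbol that were tested.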
